A study of Mus musculus with 2 samples.

Results

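Alpl/Tgfb2 cells are a small set of arterial endothelial cells (ECs) in the normal mouse mammary gland, and 96 of them were found among 4940 endothelial cells of 1 single-cell library. They make up 1.94% of those ECs (exact 95% interval 1.58 to 2.37). The cells were chosen by their UMIs (tagged transcripts). A cell entered the set when at least 3 different genes of the list Nebl, Gprc5a, Aif1l, Alpl, Tgfb2, Atp2a3 and Rgs10 had a UMI and fewer than 3 of the list Gja5, Bmx, Egfl8, Sema3g, Gja4, Car7 and St8sia6 had one. Before that step, barcodes were kept with 200 or more genes, under 10% mitochondrial UMIs, no UMI of Ptprc, Myh11, Epcam or Cspg4, and at least 1 UMI of Cdh5 or Pecam1. The study sequenced CD45-/CD31+ cells sorted by flow cytometry from pooled mammary glands of C57BL/6 mice aged 6 to 8 weeks (normal ECs, NECs) and from pooled E0771 tumors, a mouse mammary cancer line grown in the mammary fat pad (tumor ECs, TECs). Some labels of the normal sample call it TECs, whereas its title and the design text call it normal mammary gland, and the latter was followed. Each group is 1 library of pooled animals, so no comparison here has a biological replicate or a p-value. Every interval is a 95% interval that covers counting error only.

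Arteries carry blood at high pressure and pulsatile flow, and their ECs keep an identity that Notch signaling, SOXF transcription factors and ephrin-B2 maintain. They line a wall rich in elastic fibers, and they exchange signals with smooth muscle through connexins, endothelin and nitric oxide. ALPL is the tissue-nonspecific alkaline phosphatase, TGFB2 is a transforming growth factor beta ligand, ATP2A3 is a calcium pump of the endoplasmic reticulum, NEBL binds actin, and RGS10 shortens G-protein signaling. On the other list, GJA5 and GJA4 are the arterial connexins, BMX is a tyrosine kinase of large-artery endothelium, and SEMA3G is a secreted semaphorin of arteries.

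The gating genes chose these cells, so their values are a description. Alpl had a UMI in 76.0% of the 96 cells at 323.5 counts per 1000000 UMIs (CPM, the UMIs summed over the cells). The other list genes were found in 59.4% (Rgs10), 54.2% (Nebl), 52.1% (Tgfb2), 49.0% (Atp2a3), 39.6% (Aif1l) and 31.2% (Gprc5a) of the cells. Most sat close to the lower limit, with exactly 3 list genes in 60 cells and 4 or more in 36. Most also sat close to the upper limit, since 62 cells had a UMI of 2 Gja5/Bmx-list genes, 25 of 1 and 9 of none. Sema3g was the list gene seen most often, in 65.6% of the Alpl/Tgfb2 cells. Bmx was seen in 6.25%, and Gja5 in 10.4%. Just outside the gate were 132 cells with 2 Alpl/Tgfb2-list genes and 60 cells with exactly 3 Gja5/Bmx-list genes.

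**Figure D1:**
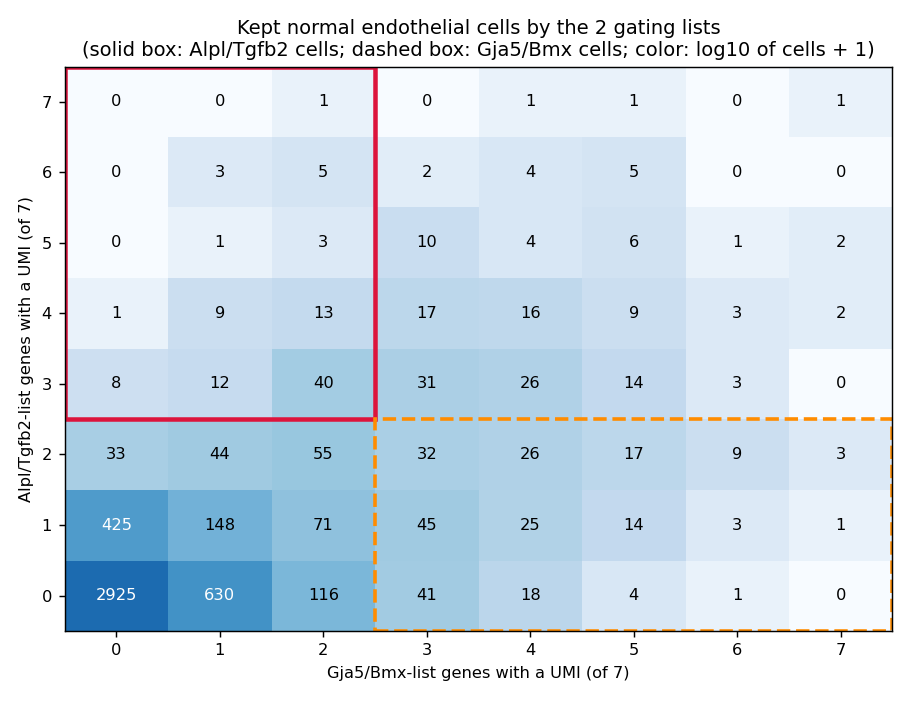
Number of kept normal ECs for each number of Gja5/Bmx-list genes (x axis) and Alpl/Tgfb2-list genes (y axis) with a UMI. The solid box holds the 96 Alpl/Tgfb2 cells, the dashed box the 239 Gja5/Bmx cells, and the upper right corner the 158 cells past both limits.

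The 2 programs overlapped. Of 254 ECs with at least 3 Alpl/Tgfb2-list genes, 158 (62.2%) also had at least 3 Gja5/Bmx-list genes. These are called dual-list cells below. They are 39.8% of the 397 ECs with at least 3 Gja5/Bmx-list genes. The other 239 of those are called Gja5/Bmx cells. The remaining 4447 ECs met neither limit. Dual-list cells were deeper, with a median of 4447 UMIs against 3178 in Alpl/Tgfb2 cells and 3108 in Gja5/Bmx cells, and a deeper cell shows more genes of either list.

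The normal table held 9047 barcodes with 40914092 UMIs, a median of 2973 per barcode and a range of 500 to 327449. The Alpl/Tgfb2 cells held 361649 UMIs and 968 to 20221 each, against a median of 2969 in the 4844 other ECs, so 3 UMIs in the whole set equal 8.30 CPM. A Pecam1 UMI was found in 93 of the 96 cells and a Cdh5 UMI in 87. Their median mitochondrial share was 3.98%, against 3.67% in the other ECs. The doublet caller Scrublet called none of 6924 scored barcodes, a share at which it cannot be taken to have worked. None of the 96 cells was among the 5% of barcodes with the highest doublet scores.

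Against all other ECs, the Alpl/Tgfb2 cells carried more transcript of S100a4 and of many arterial genes, and less of many capillary, venous and high endothelial venule markers. A gene was called higher or lower when its CPM differed by at least 2-fold and the interval of the ratio lay on that side of 0 on the log2 scale. Of 6146 genes with a mean of at least 20 CPM over both sets, 296 were called higher (4.82%) and 297 lower (4.83%), with gating genes left out. The median log2 ratio of all tested genes was 0.01.

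S100a4, a calcium-binding protein linked to cell motility, led the genes that were higher. It lies on chromosome 3 (chr3:90603771-90606045, plus strand, GRCm38 with GENCODE M21). Its 120 UMIs came from 39 of the 96 cells, at most 11 in 1 cell. That was 332 CPM (275 to 397) against 24.9 CPM in the other ECs, a log2 ratio of 3.74 (3.43 to 4.03). In cells thinned to 1900 UMIs each, S100a4 was detected in 34.5% of 84 Alpl/Tgfb2 cells, 2.56% of 3747 other ECs and 0.881% of 681 epithelial barcodes.

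Among dual-list cells S100a4 stood at 321 CPM, close to the Alpl/Tgfb2 cells (log2 ratio 0.05, -0.28 to 0.37). In Gja5/Bmx cells it stood at 54.1 CPM, and in the remaining ECs at 8.61 CPM. Within the set its level was higher in cells with fewer Gja5/Bmx-list genes. It was 638 CPM (384 to 997) in the 9 cells with none, 489 CPM (350 to 666) in the 25 cells with 1, and 244 CPM (187 to 313) in the 62 cells with 2. The first of these rests on 19 UMIs. The number of Gja5/Bmx-list genes is part of the gate and cells are not replicates, so this order is a description. Just outside the gate it was 120 CPM in the cells with 2 Alpl/Tgfb2-list genes and 433 CPM in those with 3 Gja5/Bmx-list genes.

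The 20 genes that led the comparison included 4 abundant genes of the arterial wall or the cytoskeleton. Fibulin-5 (Fbln5), which organizes elastic fibers, stood at 1098 CPM against 223 CPM (log2 2.30, 2.15 to 2.45) and was seen in 90.6% of the cells. Stathmin-2 (Stmn2), a microtubule regulator, stood at 827 against 177 CPM (2.22, 2.04 to 2.39). Fibronectin (Fn1) stood at 429 against 72.0 CPM, and the collagen Col8a1 of vessel walls at 312 against 47.4 CPM. None of these 4 was called against Gja5/Bmx cells. There, Fbln5 stood at 1351 CPM, Stmn2 at 892 CPM, Fn1 at 469 CPM and Col8a1 at 250 CPM.

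Genes of low level filled most of the other places. Tmem178 (60.8 against 4.77 CPM), Prune2 (66.4 against 6.19 CPM), Fez1 (85.7 against 10.8 CPM) and the calcium/calmodulin-dependent kinase Camk4 (69.1 against 7.49 CPM) were also higher than in Gja5/Bmx cells. Gap43, a growth-cone protein, rested on 14 UMIs in 6 cells, and Pi16, Slc22a4 and Degs2 also on 14 UMIs each. Scara3, Apba1, Frat2, Lox and the estrogen receptor Gper1 were higher with 16 to 24 UMIs each. Glutamine synthetase (Glul, chr1:153899944-153909723, plus strand) stood at 932 CPM against 202 CPM, and Cystm1 at 91.2 against 12.5 CPM. After thinning, Glul had a UMI in 70.2% of Alpl/Tgfb2 cells, 23.6% of other ECs and 65.9% of epithelial barcodes, and Cystm1 in 13.1%, 2.38% and 39.4%. Whether epithelial RNA plays a part in these levels was not tested, and the epithelial list stood at 105 CPM in Alpl/Tgfb2 cells against 130 CPM in other ECs.

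**Figure D2:**
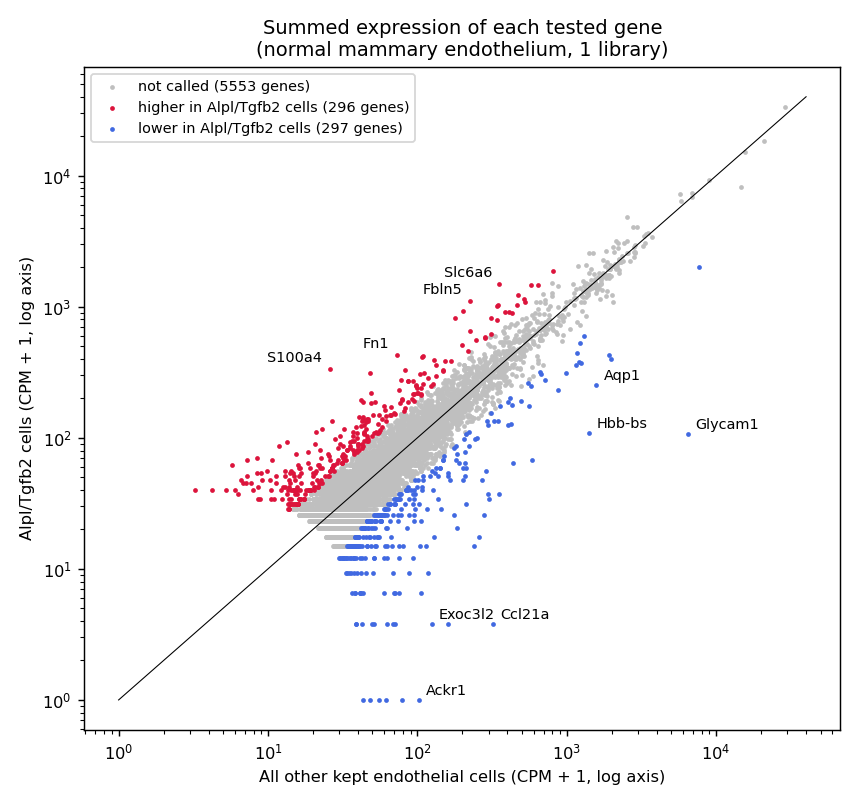
Summed expression of the 6146 tested genes in the Alpl/Tgfb2 cells (y axis) and all other kept ECs (x axis), in CPM + 1 on log axes, with 296 genes called higher in red and 297 lower in blue. S100a4 lies farthest above the diagonal among the labeled genes, and Glycam1 is the labeled gene below it with the highest level in the other ECs.

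Most arterial markers that the gate did not use were higher in Alpl/Tgfb2 cells than in other ECs. They were chosen with earlier results of these data known, so they are a description and not independent support for the label. Of 19 genes of an arterial list 18 were tested, of which 13 were higher in Alpl/Tgfb2 cells than in other ECs and none lower, and the summed list had a log2 ratio of 0.96 (0.91 to 1.01). In the same comparison, 4.82% of all tested genes were called higher. The SOXF factor Sox17 stood at 578 against 285 CPM, the Notch target Hey1 at 171 against 65.9 CPM, ephrin-B2 (Efnb2) at 254 against 126 CPM, and the Notch ligand Jag1 at 194 against 41.0 CPM. The taurine transporter Slc6a6 had 1485 against 353 CPM. The zinc-finger factor Mecom, endothelin-1 (Edn1), clusterin (Clu), Vegfc, Mgp, Gkn3, Fbln5 and Stmn2 completed the 13. The chemokine Cxcl12, which has the most UMIs of the list over both sets, stood at 1316 against 1866 CPM, and the list without it had a log2 ratio of 1.41.

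Arterial regulators and Notch genes were higher in part. Among 11 tested Notch genes, Jag1, Jag2 and Hey1 were higher and none lower, with the receptor Notch1 at 285 against 210 CPM and the ligand Dll4 at 182 against 121 CPM short of the 2-fold limit. Among 13 tested arteriovenous regulators, Sox17, Efnb2 and Mecom were higher. Nr2f2, the COUP-TFII factor of veins, was lower, at 30.4 against 65.0 CPM. Among 6 tested elastic fiber genes, Fbln5, Fbn1 and the cross-linking enzyme Lox were higher and Emilin1 lower. Elastin (Eln) stood at 182 against 136 CPM. Of all genes tested against other ECs, 4.82% were called higher and 4.83% lower.

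TGF-beta signaling was examined because a ligand of the pathway was a gating gene. Of 20 tested genes of TGF-beta and BMP signaling, only the inhibitory Smad6 was called, at 102 against 29.5 CPM (log2 1.80, 1.27 to 2.28). Over all tested genes 4.82% were called higher, so 1 call among 20 is near that share. The summed list had a log2 ratio of 0.18 (0.12 to 0.25) and its median gene 0.05. The receptors stood at 122 against 185 CPM for Tgfbr2 and 254 against 232 CPM for Acvrl1. The target genes Ctgf and Tgfbi had no UMI in the set, and neither was called lower. A set this size cannot show levels under about 8.30 CPM.

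Genes of flow sensing and vascular tone were split. Edn1 (326 against 81.7 CPM), the endothelin receptor Ednrb (326 against 149 CPM), the calcium channel Trpv4 (77.4 against 17.4 CPM) and the calcium-gated potassium channel Kcnn4 (47.0 against 9.37 CPM) were higher among 15 tested. Prostaglandin synthase Ptgs1 (16.6 against 128 CPM), Nostrin (11.1 against 74.3 CPM) and the natriuretic peptide receptor Npr1 (41.5 against 106 CPM) were lower. Klf2 (2563 against 1501 CPM), Klf4 (1510 against 795 CPM) and Nos3 (147 against 77.5 CPM), the classic genes of laminar flow, stayed under the 2-fold limit. These values are against all other ECs. Against Gja5/Bmx cells, only Ednrb was called higher and only Npr1 lower among 14 tested. Of 11 calcium handling genes, Orai1, a pore of store-operated calcium entry, was higher than in other ECs (163 against 59.9 CPM). The IP3 receptor Itpr2 was lower (24.9 against 87.5 CPM). Over all tested genes, 4.82% were called higher and 4.83% lower.

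Capillary and venous markers were low against all other ECs, where 4.82% of all tested genes were called higher and 4.83% lower. Of 13 capillary markers none was higher and 7 were lower, among them the water channel Aqp1 (252 against 1577 CPM), Car4 (55.3 against 287 CPM), the VEGF receptor Kdr (357 against 1160 CPM) and lipoprotein lipase (Lpl, 47.0 against 268 CPM). The list as a whole had a log2 ratio of -0.39 (-0.42 to -0.36), and 78.8% of its UMIs in the set were of Fabp4, at 18413 against 20852 CPM. Without Fabp4 the ratio was -0.99. Of 13 tested venous markers none was higher and 8 were lower, with a list ratio of -1.55 (-1.68 to -1.43). The atypical chemokine receptor Ackr1 of venules had no UMI in the 96 cells and 102 CPM elsewhere, at least 12.2-fold lower at the floor of 3 counts for the set. Against Gja5/Bmx cells, the capillary list stood at 23376 against 21731 CPM (log2 0.11, 0.07 to 0.14). The venous list stood at 1383 against 1685 CPM (-0.29, -0.43 to -0.14). There, Timp4, Meox2 and Lpl were called lower among 13 capillary markers. Among 12 venous markers, Selp and Sele were higher and Vwf and Lrg1 lower.

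The 20 genes that led the lower side included markers of other vessels. Glycam1, the mucin of high endothelial venules, stood at 105 CPM against 6524 CPM (log2 -5.96, -6.46 to -5.50). Its UMIs were spread over 30 Alpl/Tgfb2 cells with a UMI in 17.9% after thinning, beside 24.3% of other ECs and 18.2% of epithelial barcodes. The lymphatic chemokine Ccl21a and the ubiquitin-like Ubd had 1 UMI each. Slc16a1, a lactate transporter, Pcdh12, Meis2 and Cd74 had none, at least 9.44-, 7.29-, 6.50- and 5.72-fold lower. Fmo2, Itm2a, Exoc3l2, Ramp3, Vwa1, Penk, Esm1 and Lrg1 were lower as well. The globins Hbb-bs, Hbb-bt and Hba-a2 were also called lower, and 97.4% of the Hbb-bs UMIs of the set came from 1 cell.

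Some angiogenic receptors and basement membrane genes were lower than in all other ECs, where 4.82% of all tested genes were called higher and 4.83% lower. Among 14 tested angiogenic receptors and ligands, Kdr, Nrp1, Nrp2, Aplnr, Ackr3 and Robo4 were lower and the lymphangiogenic ligand Vegfc higher (174 against 58.8 CPM), and 7 were not called. Among 13 basement membrane genes, Lama4, Lamb1, Nid1, Hspg2 and Col15a1 were lower and Col18a1 higher, and 7 were not called. Of the general EC markers, the tight junction protein Cldn5 was higher (1869 against 811 CPM) and Emcn, which is low in arteries, and Robo4 lower (Emcn 376 against 1205 CPM). Against Gja5/Bmx cells, Ackr3 was the only gene called among 15 angiogenic genes, and it was lower. There, none of 12 basement membrane genes and none of 10 general EC markers was called. These 3 list ratios were -0.24, -0.41 and -0.36 on the log2 scale.

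Against Gja5/Bmx cells the arterial list differed by less than 2-fold, and single genes by more. Of 6137 genes tested, 271 (4.42%) were called higher and 222 (3.62%) lower, with a median log2 ratio of all tested genes of -0.01. The arterial list as a whole was a little lower (log2 -0.34, -0.39 to -0.29), with Slc6a6 the only member called higher and Mgp, Eln and Gkn3 called lower. The Notch list had a ratio of -0.03 (-0.17 to 0.10) and the arteriovenous regulators 0.02 (-0.09 to 0.13).

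Slc6a6 (chr6:91684053-91759066, plus strand) stood at 1485 CPM (1362 to 1616) in Alpl/Tgfb2 cells and 391 CPM in Gja5/Bmx cells, a log2 ratio of 1.93 (1.73 to 2.12). It was seen in 83.3% of the former and 41.8% of the latter. Dual-list cells stood between, at 1114 CPM, and the remaining ECs stood at 314 CPM. S100a4 was higher by 2.62 (2.12 to 3.13) on the log2 scale, Glul by 1.17 (0.95 to 1.39) and Camk4 by 2.24 (1.22 to 3.33). Ednrb was higher as well, at 326 against 89.0 CPM (1.87, 1.45 to 2.30), with 22.0% of its UMIs from 1 cell.

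Matrix Gla protein (Mgp), an inhibitor of calcification, went the other way, at 918 CPM (822 to 1022) against 2610 CPM (log2 -1.51, -1.68 to -1.34). Only 16 Alpl/Tgfb2 cells had a UMI of it, and 1 of them held 22.0% of the UMIs. Igfbp3 (290 against 897 CPM), elastin (182 against 424 CPM), Gkn3 (135 against 446 CPM), the diphosphoinositol phosphatase Nudt4 (147 against 509 CPM), the serpin PEDF (Serpinf1, 19.4 against 162 CPM) and the channel subunit Kcne3 (24.9 against 125 CPM) were also lower. Acta2, smooth muscle actin, stood at 19.4 against 207 CPM, beside a smooth muscle list at 124 against 433 CPM. Whether smooth muscle RNA in the Gja5/Bmx cells plays a part was not tested. Pglyrp1, Glycam1, Ccl21a and Ubd were lower too. The high endothelial venule list stood at 13043 CPM in Gja5/Bmx cells, 191 CPM in Alpl/Tgfb2 cells and 171 CPM in dual-list cells. The lymphatic list stood at 564, 41.5 and 49.1 CPM in the same order. Of the Gja5/Bmx cells, 40 lay outside the arterial clusters described next, so these calls do not compare arterial cells alone.

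**Figure D3:**
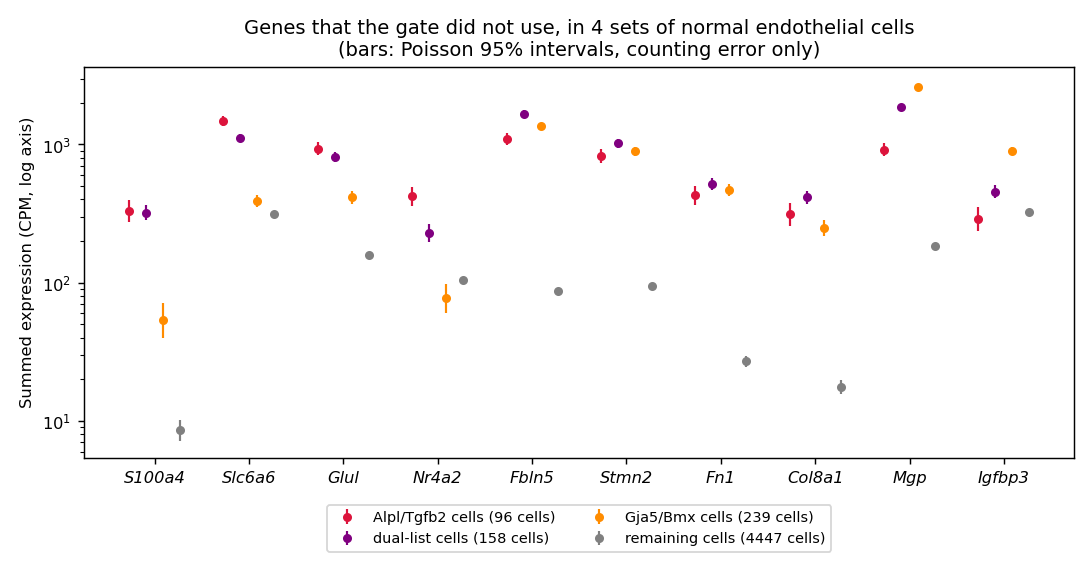
Summed expression (CPM, log axis) of 10 genes that the gate did not use, in Alpl/Tgfb2 cells, dual-list cells, Gja5/Bmx cells and remaining ECs, with Poisson 95% intervals as bars. S100a4, Slc6a6 and Glul stand higher in both sets with the Alpl/Tgfb2 genes, Fbln5, Stmn2, Fn1 and Col8a1 stand far above the remaining ECs in the other 3 sets, and Mgp and Igfbp3 stand highest in Gja5/Bmx cells.

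Alpl/Tgfb2 cells did not form a cluster of their own. The 4940 ECs were clustered with the gating genes left out, which gave 17 clusters, and 89 of the 96 cells (92.7%) fell into 2 of them. Cluster 9 (225 cells) held 49 and cluster 4 (436 cells) held 40. In cluster 9, 12 of 19 arterial markers were enriched, and in cluster 4, 13, so both are arterial-like. The same 2 clusters held 83.3% of the Gja5/Bmx cells and 92.4% of the dual-list cells, but in other proportions. Cluster 9 held 32 Gja5/Bmx cells and 66 dual-list cells, and cluster 4 held 167 and 80.

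The Alpl/Tgfb2 cells of the 2 clusters differed in the immediate early program, the genes that cells switch on within minutes of a stimulus. Fos, Jun, Egr1 and the other 10 genes of this list summed to 26304 CPM in the Alpl/Tgfb2 cells of cluster 9 and 4396 CPM in those of cluster 4 (log2 of 4 over 9, -2.58, -2.73 to -2.44). Heat shock genes stood at 7184 and 3411 CPM. The arterial list stood at 9615 and 13563 CPM, and the general EC list at 5306 and 8903 CPM. These values describe clusters that the same genes helped to build.

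The contrast with Gja5/Bmx cells differed by cluster. Over all cells, 9 of 13 immediate early genes were higher in Alpl/Tgfb2 cells than in Gja5/Bmx cells, where 4.42% of all tested genes were called higher. The list had a log2 ratio of 1.09 (1.05 to 1.14) over all cells. Within cluster 9 the ratio was -0.14 (-0.20 to -0.08), and within cluster 4 it was 0.32 (0.17 to 0.48). Neither of these reached 2-fold. Of the 12 genes that led the higher side, Nr4a1, Trib1, Pde12, Mt2 and Tmem252 were also above Gja5/Bmx cells within cluster 9, with log2 ratios of 0.64 (0.19 to 1.11), 1.42 (0.40 to 2.58), 1.15 (0.35 to 2.03), 1.34 (0.26 to 2.58) and 0.91 (0.28 to 1.59). Within cluster 4 each of the 5 had at most 6 UMIs in the Alpl/Tgfb2 cells. Nr4a2, a nuclear receptor induced by cyclic AMP and calcium, stood at 420 against 77.7 CPM over all cells (log2 2.43), at 653 against 321 CPM within cluster 9 (1.02, 0.51 to 1.56) and at 40.6 against 17.3 CPM within cluster 4 (1.23, -0.92 to 3.07).

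Summed over the whole set, all 3 genes of the NR4A family were higher in Alpl/Tgfb2 cells than in other ECs, Nr4a1 at 553 against 244 CPM, Nr4a2 at 420 against 108 CPM and Nr4a3 at 111 CPM with a log2 ratio of 2.47 (1.96 to 2.94). This did not hold in each cluster. Nr4a2 stood at 653 CPM in the Alpl/Tgfb2 cells of cluster 9 and at 40.6 CPM in those of cluster 4, below the other ECs. Nr4a3 was added after its value was seen. Their promoters are shown because the family is a textbook target of CREB, the factor that cyclic AMP activates, whose half-site is TGACG, or on the other strand CGTCA. The 250 bases before each RefSeq start follow, 5′ to 3′ on the strand of the gene, with half-sites in capitals:
Nr4a1 (chr15:101266596-101266845, GRCm38.p6, plus strand): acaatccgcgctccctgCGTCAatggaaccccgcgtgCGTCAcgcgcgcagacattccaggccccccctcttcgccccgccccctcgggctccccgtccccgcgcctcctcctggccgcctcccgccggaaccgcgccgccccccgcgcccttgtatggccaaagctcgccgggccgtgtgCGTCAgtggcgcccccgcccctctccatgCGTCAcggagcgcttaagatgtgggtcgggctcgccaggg
Nr4a2 (chr2:57124004-57124253, GRCm38.p6, minus strand): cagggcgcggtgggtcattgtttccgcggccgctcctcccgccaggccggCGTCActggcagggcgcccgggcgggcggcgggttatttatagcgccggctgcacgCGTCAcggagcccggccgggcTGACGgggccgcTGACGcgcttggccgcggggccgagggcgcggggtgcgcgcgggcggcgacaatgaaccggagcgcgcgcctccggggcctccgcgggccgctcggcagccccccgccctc
Nr4a3 (chr4:48045055-48045304, GRCm38.p6, plus strand): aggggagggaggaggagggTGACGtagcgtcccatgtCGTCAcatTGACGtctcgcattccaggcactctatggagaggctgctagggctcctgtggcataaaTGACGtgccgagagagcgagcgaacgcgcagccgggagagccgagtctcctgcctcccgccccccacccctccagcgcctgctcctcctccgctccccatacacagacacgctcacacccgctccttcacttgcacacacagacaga
Each of the 3 holds 4 half-sites. Of all 32851 RefSeq promoters of this length, 17.8% hold at least 1 and 0.137% (45 promoters) at least 4. A match is a run of letters and was not tested as a binding site.

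Inside each cluster, S100a4 and Slc6a6 stood above Gja5/Bmx cells, by less in cluster 9 than over all cells, and there Slc6a6 fell short of 2-fold. S100a4 stood at 264 against 38.4 CPM in cluster 4 (log2 2.78, 1.88 to 3.70) and at 468 against 199 CPM in cluster 9 (1.24, 0.60 to 1.92). Slc6a6 stood at 1157 against 225 CPM in cluster 4 (2.37, 1.98 to 2.75) and at 1739 against 1163 CPM in cluster 9 (0.58, 0.30 to 0.86). Glul, the glutamine synthetase, had log2 ratios of 0.93 (0.51 to 1.34) in cluster 4 and 0.41 (0.08 to 0.76) in cluster 9, both under 2-fold.

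Mgp, Gkn3, Igfbp3, Serpinf1, Nudt4 and Eln had log2 ratios below 0 inside both clusters, with intervals below 0. Mgp and Igfbp3 in cluster 4 and Eln in cluster 9 were under 2-fold. Mgp stood at 1919 against 3604 CPM in cluster 4 (log2 -0.91, -1.13 to -0.69) and at 712 against 1813 CPM in cluster 9 (-1.35, -1.66 to -1.04). Its UMIs came from 22.5% of the 40 Alpl/Tgfb2 cells of cluster 4 and 14.3% of the 49 of cluster 9. The intervals hold no spread between cells, so they are too narrow for a gene this uneven. Gkn3, a gastrokine of arterial ECs, had ratios of -1.03 (-1.62 to -0.48) and -2.15 (-2.99 to -1.38). Acta2 was lower in cluster 4, at 30.5 against 307 CPM, and stood at 19.9 against 15.3 CPM in cluster 9. The arterial list differed by -0.16 (-0.24 to -0.08) in cluster 4 and -0.32 (-0.42 to -0.22) in cluster 9.

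Across the 661 cells of these 2 clusters, S100a4, Slc6a6 and Glul stood higher the more Alpl/Tgfb2-list genes a cell showed. These genes were named from comparisons that the same list defined in these cells. Their order is therefore a description and not independent support. S100a4 stood at 74.9 CPM in 112 cells with none of the list genes, 118 CPM with 1, 158 CPM with 2, 209 CPM with 3, and 489 CPM (432 to 552) in 115 cells with 4 or more. Slc6a6 went from 485 CPM (407 to 574) to 1478 CPM (1377 to 1583), and Glul from 457 to 995 CPM, each in the same order of steps. The summed arterial list stayed between 11909 and 13175 CPM over the 5 steps. Mgp stood at 2979 CPM in the cells with none and 1459 CPM in those with 4 or more, and Igfbp3 at 835 and 394 CPM. After thinning, Mgp was again lower with 4 or more, without a steady order between, and Igfbp3 was not lower.

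Depth and cluster moved with these steps. Median UMIs went from 2196 to 4301, and the share of cells from cluster 9 from 17.9% to 56.5%, beside an immediate early list at 8220 and 20245 CPM. With every cell thinned to 1900 UMIs and the list genes counted again, S100a4 still stood at 89.0, 150, 301, 366 and 399 CPM over the 5 steps. Slc6a6 stood at 577, 803, 1095, 1388 and 1143 CPM, the last in 29 cells. Mgp stood at 2535, 2002, 1974, 2838 and 454 CPM, and Igfbp3 at 658, 750, 378, 412 and 944 CPM. The part of cluster in these orders was not tested.

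**Figure D4:**
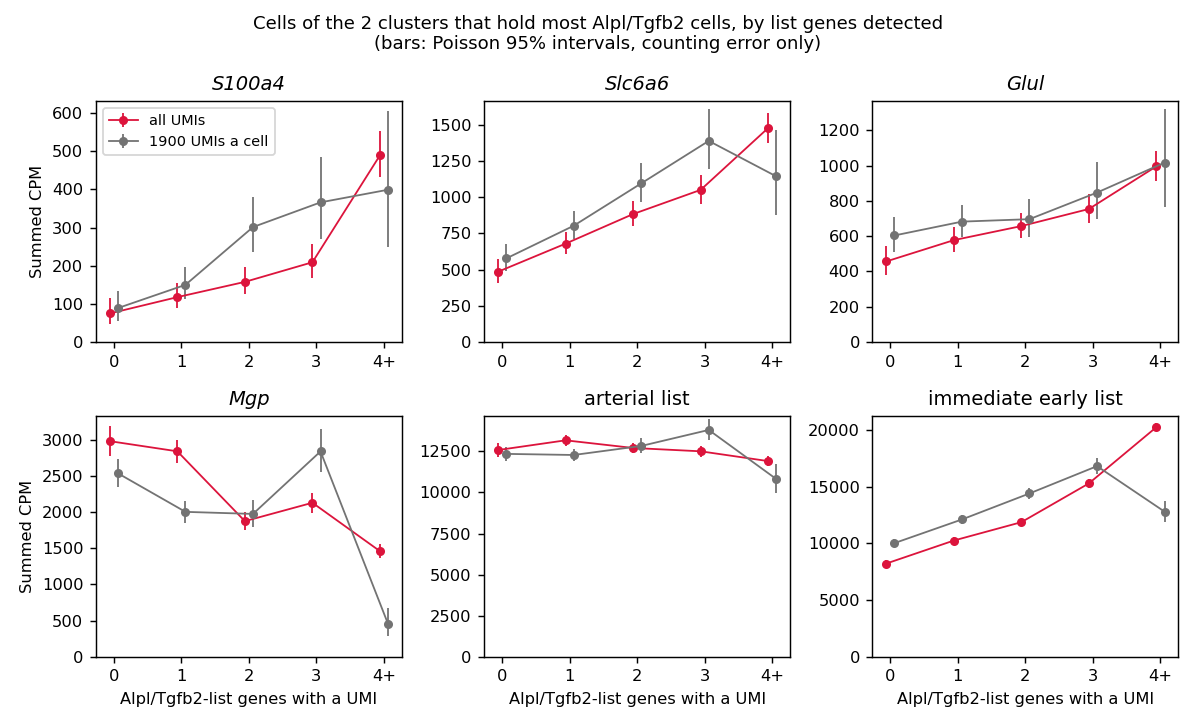
Summed CPM in the 661 cells of clusters 4 and 9 by the number of Alpl/Tgfb2-list genes with a UMI, from all UMIs (red) and from 1900 UMIs a cell (gray), with Poisson 95% intervals as bars. S100a4, Slc6a6 and Glul were named from comparisons that this list defined, so their order is a description. S100a4 and Glul stand higher to the right in both, Slc6a6 up to 3 genes after thinning, the arterial list stays between 10817 and 13806 CPM, and the immediate early list climbs with all UMIs and drops at the last step after thinning.

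The other 7 Alpl/Tgfb2 cells lay in 4 clusters and held 62412 UMIs, with a median of 6208. One lay in cluster 16, where 10 pericyte markers were enriched, one in cluster 14 with 9 venous markers, 3 in cluster 10 with 4 capillary markers and 2 in cluster 2. Their arterial list stood at 5976 CPM and their venous list at 3733 CPM, against 907 and 863 CPM in the Alpl/Tgfb2 cells of clusters 9 and 4. None of the 7 had a UMI of S100a4, which allows up to 59.1 CPM. Without them the venous list ratio against other ECs was -2.18 in place of -1.55.

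Single cells held many of the UMIs behind some of the calls against Gja5/Bmx cells. All 17 UMIs of E-selectin (Sele) came from 1 cell, as did all 23 of Hba-a1, 97.4% of Hbb-bs and 94.4% of P-selectin (Selp). The pericyte gene Steap4 was higher (47.0 against 12.4 CPM) with 94.1% of its UMIs from 1 cell. Chemokines that were called higher, Cxcl1, Cxcl9 and Cxcl10, drew 41.7%, 60.0% and 46.4% from 1 cell. Fam109a was less uneven, with 16 UMIs in 11 cells and 44.2 against 2.25 CPM.

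Against dual-list cells the calls were the fewest of the 3 comparisons, with 109 of 6060 genes higher (1.8%) and 110 lower (1.82%). Slc6a6 stood at 1485 against 1114 CPM (log2 0.42, 0.26 to 0.57), and Nr4a2 at 420 against 230 CPM (0.87, 0.55 to 1.19). Mgp was lower, at 918 against 1860 CPM (-1.02, -1.20 to -0.84), as were Serpinf1 and Nudt4.

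**Figure D5:**
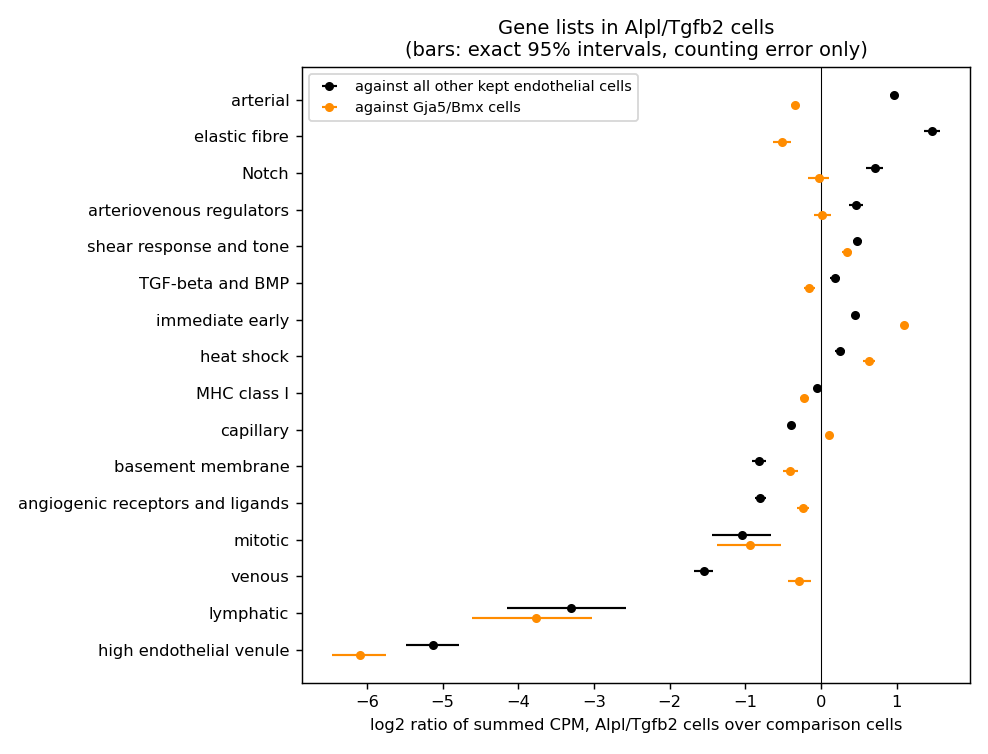
Log2 ratio of summed CPM of 16 gene lists, Alpl/Tgfb2 cells over all other kept ECs (black) and over Gja5/Bmx cells (orange), with exact 95% intervals as bars. The arterial, elastic fiber and Notch lists lie right of 0 against other ECs and at or left of 0 against Gja5/Bmx cells, and the immediate early list lies farthest right against Gja5/Bmx cells.

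The pericyte, smooth muscle, fibroblast and epithelial lists had ratios to other ECs whose intervals held 0. All 7 immune genes and all 5 MHC class II genes were at 0 in the 96 cells. The pericyte list stood at 152 CPM against 178 CPM in other ECs, the smooth muscle list at 124 against 151 CPM, the fibroblast list at 69.1 against 76.6 CPM and the epithelial list at 105 against 130 CPM. Without Rgs5 the pericyte list had a log2 ratio of 0.55 (0.04 to 1.03), beside Steap4 with 94.1% of its UMIs from 1 cell. Proliferation genes stood at 158 against 324 CPM (log2 -1.04, -1.44 to -0.66). Lymphatic markers stood at 41.5 against 410 CPM. Salivary secretory genes stood at 1360 against 2198 CPM, with a UMI in 94 of the 96 cells and 4646 of the other ECs. Whether the pooled tissue held salivary gland beside mammary gland is not given in the labels and was not tested, so the tissue of origin rests on the labels. The DNA methylation list, examined because the study concerns Dnmt1, had a ratio of -0.15 (-0.39 to 0.07), with 5 UMIs of Dnmt1 in 4 cells. Against Gja5/Bmx cells the list ratio was -0.09 (-0.36 to 0.17), with Dnmt1 and Mbd3 called lower among 8 tested genes. Of all genes tested against Gja5/Bmx cells, 3.62% were called lower. The Dnmt1 call rests on those 5 UMIs. Red cell genes stood at 221 against 2447 CPM and adipocyte genes at 13.8 against 81.1 CPM. Milk protein genes stood at 19.4 against 10.5 CPM, with no gene tested, Schwann cell genes had 1 UMI, and the mesothelial gene was at 0.

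Most other lists had few calls against other ECs, where 4.82% of all tested genes were called higher and 4.83% lower. Of 13 interferon response genes none was higher, and the list ratio was -0.08 (-0.17 to 0.01). MHC class I genes had a ratio of -0.05 (-0.10 to 0.00), and hypoxia and glycolysis genes 0.05 (-0.06 to 0.16), with no gene called in either. Of 21 tested actin cytoskeleton genes, Tpm2 was higher and Cnn2 lower. Of 6 RGS genes, Rgs2 was higher (66.4 against 24.8 CPM, 41.7% from 1 cell) and Rgs5 lower. Of 3 tested phosphate and nucleotide genes, none was called. Heat shock genes had a ratio of 0.25 (0.19 to 0.31) with Hspa1a higher, and the calcium list -0.08. Fatty acid handling had a ratio of -0.26 with Fabp5, Gpihbp1 and Lpl lower, coagulation -0.44 with Plat higher, and junctions and caveolae -0.16 with Cldn5 higher and Plvap lower. Chemokines and adhesion had -0.29 with Cx3cl1 higher and Cxcl10 and Selp lower, retinoid handling -0.84, and tip cell genes -0.99 with Esm1 and Trp53i11 lower.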

How the data were processed

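The authors mapped 10x Genomics reads with Cell Ranger and deposited raw UMI counts per gene and barcode. The submitters' processing notes name mm10 as the build, and the annotation release was not given in the sources used here. The authors' own analysis in Seurat removed cells under 200 genes or over 10% mitochondrial UMIs and log-normalized the rest, but the deposited counts are not normalized. The filters above were applied to the deposited counts of the normal library. Counts were summed over cells and divided by total UMIs to give CPM. Sums carry Poisson intervals, shares Clopper-Pearson intervals and ratios exact conditional binomial intervals, at 95%. Shares of cells with a UMI were set beside those in 698 epithelial barcodes (an Epcam UMI and no Cdh5 or Pecam1 UMI), which are cells and can express a gene themselves. No statistical test was possible with 1 library per group. The intervals were tested only on simulated Poisson counts, which hold no extra spread between cells. That test cannot show how the intervals hold for genes whose UMIs come mostly from a single cell. The thinning was checked on the real counts, only for the UMI total left in each cell.

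Genes were named by rule: up to 20 higher and 20 lower against other ECs, up to 12 each way against Gja5/Bmx cells (ranked by the interval bound nearest 0), and all genes of 42 lists. The members, lists and rules were chosen with earlier results of these data known. Clustering used Seurat 5.3.0 (4000 variable genes requested, 3986 without gating genes, 20 components, resolution 0.8, with 0.4 and 1.2 as alternatives). A marker counted as enriched in a cluster when at least 25% of its cells had a UMI and its CPM was at least 2-fold that of the other ECs. Other steps ran in Python 3.11.15 with scipy 1.17.1, and Scrublet through scanpy 1.11.5. Gene positions came from GENCODE M21, in which 17437 of 17641 symbols were found. The normal and tumor tables shared 3 barcodes, none of them kept in both. Results for a few genes are not reported here.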

Additional observations from a re-analysis of the deposited data

Results flagged for a closer look

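The tumor library, which no comparison above uses, also holds barcodes that meet the rule. Of 312 kept tumor barcodes, 10 passed it (3.21%, exact 95% interval 1.55 to 5.82). They were flagged because this library lies outside the main measurement. These 10 had a median of 103289 UMIs (lowest 84707), against 19298 in all kept tumor barcodes. Their general EC list stood at 178 CPM, between 94.3 and 358 CPM per barcode, against 3904 CPM in all kept tumor barcodes. At 1900 UMIs per barcode, 0 of 289 tumor barcodes passed, which allows a share of up to 1.04%, and 65 of 3831 normal ECs (1.70%).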

How the results depend on the processing

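The arterial, capillary and venous ratios against other ECs kept their sign under every alternative run. Other lists were recomputed only without their gene of most UMIs, and against other ECs the sign then turned for junctions and caveolae (-0.16 to 0.25), calcium handling (-0.08 to 0.17), pericyte (-0.23 to 0.55), smooth muscle (-0.28 to 0.24), fibroblast (-0.15 to 0.29), MHC class I (-0.05 to 0.01) and interferon genes (-0.08 to 0.01). The settings on clusters 4 and 9 and on top cells were chosen after seeing the data. The share of Alpl/Tgfb2 cells was 0.729% with 4 or more list genes required, 4.62% with 2 or more, 0.182% with no Gja5/Bmx-list gene allowed and 5.14% with no limit on them. In the order higher then lower against other ECs, the gene counts (296 and 297) became 130 and 140 with 2 or more list genes, 153 and 128 at a mean of 50 CPM, 479 and 487 with no filter, 95 and 127 at 3-fold, and 116 and 137 within clusters 4 and 9; the lower count was 103 with no Gja5/Bmx-list gene and 448 when each set lost its top cell for the gene. Against Gja5/Bmx cells (271 and 222), they became 126 and 100 with no limit on Gja5/Bmx-list genes, 147 and 89 at 50 CPM and 75 and 75 at 3-fold, and the lower count was 95 with no Gja5/Bmx-list gene and 340 with no filter. The arterial list ratio (0.96) was 1.04 with 4 list genes, 0.81 with 2, 0.60 with no Gja5/Bmx-list gene, 1.25 with no limit on them, 1.14 with the rule at 1900 UMIs, 1.13 as a mean over cells, 1.41 without Cxcl12 and 1.08 with Alpl/Tgfb2 cells of clusters 4 and 9 only. In the same order of settings as far as they apply, the capillary ratio (-0.39) was -0.25 with 2 list genes, -0.49, -0.53, -0.35, -0.69, -0.99 without Fabp4 and -0.51, and it was -0.44 with Cdh5 required, -0.32 under 5% mitochondrial UMIs and -0.53 in cells of 2000 to 8000 UMIs. The venous ratio (-1.55) was -2.44 with 4 list genes, -1.32, -3.58, -1.70, -2.27, -1.81, -1.08 without Plvap and -2.18, and it was -1.36 under 5% mitochondrial UMIs and -2.29 in cells of 2000 to 8000 UMIs. The cause of these shifts was not tested. No paired analysis was possible because each group is 1 library. Depth limits the set to levels above 8.30 CPM.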
